A study of Mus musculus with 5 samples.

Results

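The genes described here are 10 core components of the Notch pathway: the receptors Notch1, Notch2, Notch3 and Notch4, the ligands Jag1, Jag2, Dll1 and Dll4, and the target genes Hes1 and Hey1. They were taken by symbol from the 32285 genes of the count matrices, all 10 were found, and each symbol stood there once. The data are single-cell RNA sequencing libraries of male mice: 3 of the developing penis at postnatal day 6 (P6), and 1 each of the forelimb and hindlimb at embryonic day 15 (E15). The labels give the strain as C57BL/6N for every library where the methods name C57BL/6J, and the study's text gives the limb stage as slightly earlier or later than the label in places. Strain and stage are printed here as labelled, and neither labels nor methods name a mutant allele or an agent for these samples. The methods give 3 males from more than 1 litter for the penis, dissected without the prepuce, and 6 male embryos for the limbs, without saying how many embryos entered each limb library. Organ and age therefore differ together between penis and limb and cannot be told apart, and each limb type had no replicate of its own.

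Notch signaling passes between touching cells. A ligand of the Jagged or Delta-like family on one cell binds a Notch receptor on its neighbour, the receptor is cut, and its released intracellular domain enters the nucleus and joins the DNA-binding protein RBPJ. Hes and Hey genes, which encode transcriptional repressors, are among the best known genes switched on by this complex. In blood vessels the pathway is known for choosing tip and stalk cells and for arterial identity, in mural cells (pericytes and smooth muscle) for maturation, in epidermis for differentiation above the basal layer, and in muscle for keeping progenitors undifferentiated.

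The genes lie on several chromosomes of the mouse genome (GRCm38, GENCODE M21), Notch1 at chr2:26457903-26516663, Notch2 at chr3:98013527-98150361, Notch3 at chr17:32120820-32166852 and Notch4 at chr17:34564268-34588503. The ligand genes are at chr2:137081456-137116644 (Jag1), chr12:112907819-112929776 (Jag2), chr17:15367354-15376872 (Dll1) and chr2:119325784-119335962 (Dll4), and the targets at chr16:30064384-30067796 (Hes1) and chr3:8663359-8667256 (Hey1). All 10 are protein coding. Promoter windows of RefSeq (GRCm38.p6) were at hand for 8 of them, and 3 are printed because the results below turn on them: Dll4, highest in the endothelial classes, Notch4, highest in blood endothelial cells, and Notch3, highest in mural cells and limb muscle progenitors. Each window holds the 250 bases before a start annotated by RefSeq, on the gene's strand. The windows lie at chr2:119325534-119325783 (plus strand) for Dll4, chr17:34564045-34564294 (plus strand) for Notch4 and chr17:32166891-32167140 (minus strand) for Notch3. For Notch4 and Notch3 this start differs from the gene bounds printed above. Capitals mark the letters AGGAAG or their reverse CTTCCT, a longer form of the core GGAA recognised by ETS factors, a family that includes endothelial regulators.
Dll4: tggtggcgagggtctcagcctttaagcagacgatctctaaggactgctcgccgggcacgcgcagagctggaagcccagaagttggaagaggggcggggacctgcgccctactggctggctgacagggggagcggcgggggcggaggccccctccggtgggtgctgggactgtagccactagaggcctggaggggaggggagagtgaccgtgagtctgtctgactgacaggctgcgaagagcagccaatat
Notch4: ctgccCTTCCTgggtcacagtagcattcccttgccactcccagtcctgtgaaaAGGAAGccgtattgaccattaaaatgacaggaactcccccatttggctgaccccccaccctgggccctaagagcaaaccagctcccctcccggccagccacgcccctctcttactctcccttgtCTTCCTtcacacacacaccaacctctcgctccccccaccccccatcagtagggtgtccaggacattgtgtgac
Notch3: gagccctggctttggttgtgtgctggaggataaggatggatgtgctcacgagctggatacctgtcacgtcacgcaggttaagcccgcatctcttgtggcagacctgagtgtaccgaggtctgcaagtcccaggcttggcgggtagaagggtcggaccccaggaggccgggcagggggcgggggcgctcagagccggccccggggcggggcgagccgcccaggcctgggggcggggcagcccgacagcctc
The letters AGGAAG or CTTCCT occurred 3 times in the Notch4 window, 1 time on the printed strand and 2 times on the other. They were in neither the Dll4 nor the Notch3 window. The shorter letters GGAA, which were not marked or counted, do stand in the Dll4 window. Of all 32851 RefSeq windows of this length, 29.5% held AGGAAG or CTTCCT on either strand. The letters TGGGAA or TTCCCA, the RBPJ core, were in none of the 9 windows of the 8 genes and in 21.6% of all windows. These are matches of letters within short windows and say nothing of binding.

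After the cell limits of the methods, 5708 to 7085 cells remained in each penis library and 20514 to 22057 in each limb library, with a median of 8791.5 to 9909 unique molecular identifiers (UMIs, each counting 1 captured RNA molecule) per cell in the penis and 5358 to 6057 in the limbs. Cells were placed in classes by marker genes that include no Notch pathway gene, for example at least 4 of 8 endothelial markers, and names such as pericyte or mesenchyme mean only that a cell passed this gate. A level is given as CPM, the UMIs of a gene per 1000000 UMIs of all cells of a class in a library. Cells passing gates of several lineages (743 of 62152) were left out, no doublet caller was run, and 13.5% of cells passed no gate. The gated classes were led by genes of their type, with exceptions. The 10 leading genes of penis mesenchyme (Osr1, Pi15 and Gdf10 among them) held none of its 8 markers, and those of limb mesenchyme (Crabp1 and Twist2 first) held 1. Limb epithelium, the class used between the organs, also held 1 of its markers among its 10, and limb suprabasal epithelium was led by Asprv1, Psca and keratins such as Krt6a, with 2 of its markers among the 10. Arterial cells of both organs were led by genes of endothelium at large (Cdh5, Cd93 and Emcn among the first 4), and the 10 leading genes of penis non-arterial cells, Nts first, held 1 endothelial marker. Barcodes shared by 2 libraries numbered 20 to 37 among penis libraries, 54 to 88 between penis and limb libraries and 203 between forelimb and hindlimb.

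**Figure D1:**
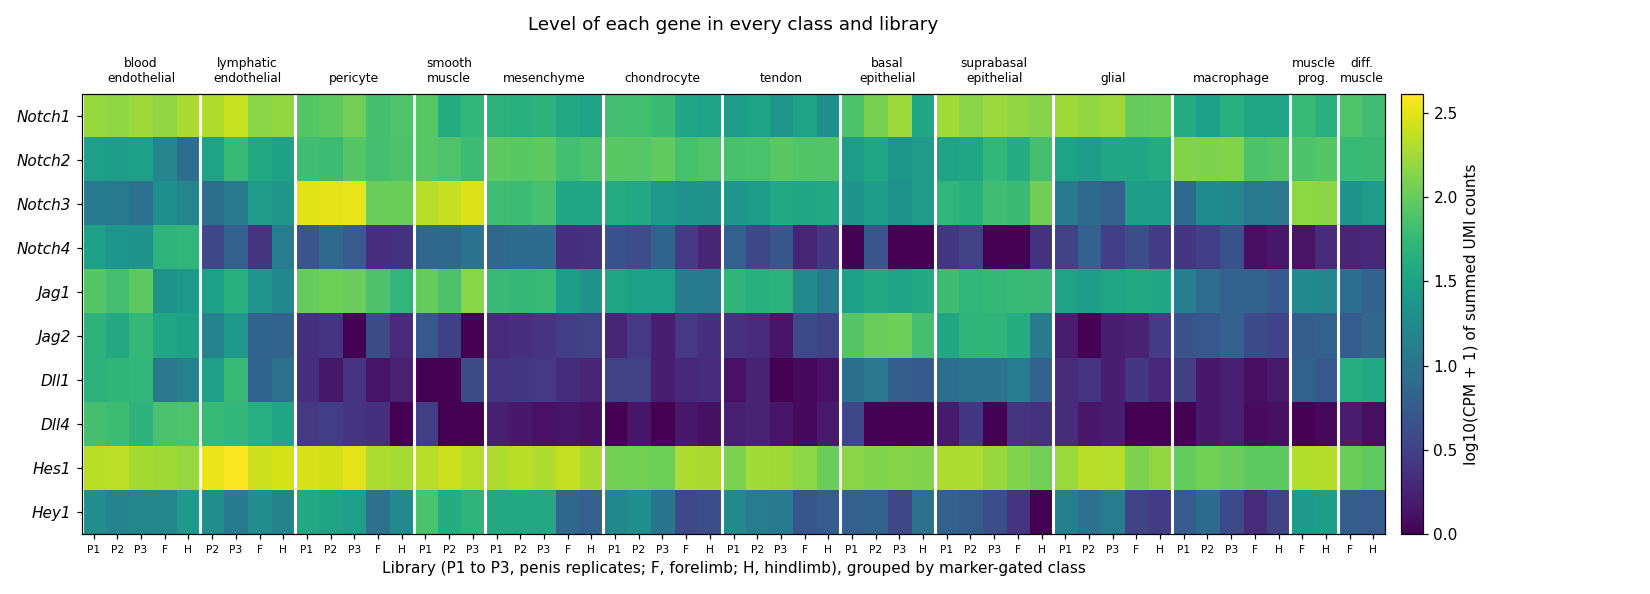
Level of the 10 genes (rows) in every class and library (columns; P1 to P3, penis replicates; F, forelimb; H, hindlimb), as log10(CPM + 1) of summed UMI counts. Dll4 is bright in the endothelial columns and near 0 elsewhere, Notch3 is brightest in the mural columns and limb muscle progenitors, and Hes1 is bright in every column.

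Among the receptors, Notch1 was present in every class and Notch4 was highest in blood endothelial cells of both organs. In the penis, Notch1 stood highest in lymphatic endothelial cells, at 223 ± 32 (SD, n = 2) CPM, above glial cells at 163 ± 9.2 (SD, n = 3) CPM without overlap of the libraries. Glial, suprabasal and blood endothelial cells followed with overlapping values, and tendon was lowest at 27.6 ± 4.2 (SD, n = 3) CPM. In the limbs, blood endothelial cells (169 ± 27 (SD, n = 2) CPM) overlapped lymphatic endothelial cells (146 ± 10 (SD, n = 2) CPM), which overlapped suprabasal epithelium, and tendon was again last at 25.4 ± 8.4 (SD, n = 2) CPM.

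Notch2 had another order. Penis macrophages led at 130.0 ± 2 (SD, n = 3) CPM, clear of mesenchyme at 90.1 ± 2.4 (SD, n = 3) CPM, and basal epithelium and blood endothelial cells closed the order at 28.3 and 28.6 CPM with overlapping libraries. In the limbs the first 6 classes, from muscle progenitors at 79.4 ± 5.4 (SD, n = 2) CPM to mesenchyme at 69.6 ± 5.8 (SD, n = 2) CPM, each overlapped the next, and blood endothelial cells were lowest at 11 ± 4.7 (SD, n = 2) CPM.

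Notch3 was led by mural cells in the penis and by muscle progenitors in the limbs. The muscle classes had enough cells in the limbs only, and smooth muscle in the penis only. Penis pericytes held 316 ± 7.9 (SD, n = 3) CPM and penis smooth muscle 249 ± 42 (SD, n = 3) CPM, without overlap between them, and the next class, mesenchyme, had 64.3 ± 4.8 (SD, n = 3) CPM. In the limbs muscle progenitors were first at 144 ± 3.5 (SD, n = 2) CPM, above pericytes at 104 ± 2.1 (SD, n = 2) CPM. Notch4 stood at 24.4 ± 4.2 (SD, n = 3) CPM in penis and 50.1 ± 1.9 (SD, n = 2) CPM in limb blood endothelial cells, and no other class mean passed 7.28 CPM in the penis or 6.55 CPM in the limbs.

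The ligands differed in breadth. Jag1 was spread over many classes, with penis smooth muscle (104 ± 32 (SD, n = 3) CPM) and pericytes (102 ± 4.9 (SD, n = 3) CPM) overlapping at the top and macrophages last at 8.46 ± 3.3 (SD, n = 3) CPM. Jag2 was an epithelial and endothelial ligand here, led by basal epithelium at 96.4 ± 14 (SD, n = 3) CPM in the penis and 69 CPM in the hindlimb, the only limb library with enough basal cells. Blood endothelial and suprabasal cells followed with overlapping values, at 46 and 45.2 CPM in the penis.

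Dll1 had a different leading class in each organ, over orders that do not hold the same classes: the muscle classes had enough cells in the limbs only. In the penis it was highest in blood (49.9 ± 3.5 (SD, n = 3) CPM) and lymphatic endothelial cells (42.2 ± 19 (SD, n = 2) CPM), which overlapped, while in the limbs differentiating muscle led at 38.9 ± 3.1 (SD, n = 2) CPM, clear of blood endothelial cells at 11.5 ± 2.4 (SD, n = 2) CPM. Dll4 was near 0 outside the endothelial classes. Blood endothelial cells had 59.3 ± 10 (SD, n = 3) CPM in the penis and 74.7 ± 4.4 (SD, n = 2) CPM in the limbs, and outside the endothelial classes no class mean passed 1.75 CPM in the penis or 1.44 CPM in the limbs.

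Of the targets, Hes1 was measured in every class, from 104 ± 7.9 (SD, n = 3) CPM in macrophages to 375 ± 45 (SD, n = 2) CPM in lymphatic endothelial cells of the penis, and from 90.2 ± 1.3 (SD, n = 2) to 272 ± 18 (SD, n = 2) CPM in the same classes of the limbs. Hey1 was lower and more selective: in the penis smooth muscle (54.2 ± 17 (SD, n = 3) CPM), mesenchyme (37.1 ± 0.28 (SD, n = 3) CPM) and pericytes (32.8 ± 3.8 (SD, n = 3) CPM) came first, without overlap between neighbours. In the limbs muscle progenitors (26.2 ± 2.9 (SD, n = 2) CPM) overlapped blood endothelial cells (19.9 ± 6.6 (SD, n = 2) CPM), and mesenchyme had 5.98 ± 0.88 (SD, n = 2) CPM. Over the 20 orders (10 genes in each organ), 4 to 9 neighbouring pairs in each overlapped among 10 pairs in the penis and 11 in the limbs.

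In each class the level was next compared with mesenchyme of the same libraries (edgeR quasi-likelihood test with library as a term, Benjamini-Hochberg adjustment over all genes tested), and a gene was called at an adjusted p under 0.01 with a log2 fold change beyond 1 in either direction. Blood endothelial cells had the widest set of Notch genes: 7 of the 10 genes were called, 5 higher and 2 lower, where 24.9% of all genes were called. The 5 higher were 3 ligands and 2 receptors. The median log2 fold change of the 10 was 1.22, beside -0.06 over all genes tested.

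Dll4, the ligand that restrains sprouting of neighbouring vessel cells, gave 67.4, 62.2 and 48.2 CPM in penis replicates 1, 2 and 3, 71.6 in the forelimb and 77.8 in the hindlimb library, against 0.686, 0.518 and 0.351 CPM and 0.407 in the forelimb and 0.315 in the hindlimb library in mesenchyme. Every endothelial value stood far above every mesenchyme value, with a log2 fold change of 7.27 ± 0.21 SE, adjusted p = 1.0e-06. Dll4 passed the filter on low counts, applied before testing, only with its endothelial values, as mesenchyme held 12 to 31 of its UMIs a library. Its fold and p are therefore not set beside those of the other genes. Jag2 had 47.6, 37 and 53.5 CPM in the penis and 34 in the forelimb and 30 in the hindlimb library in blood endothelial cells, against at most 2.29 CPM in mesenchyme (log2 4.69 ± 0.28, adjusted p = 1.6e-05). Dll1 was higher by log2 4.51 ± 0.32, adjusted p = 3.4e-05, with the values by library given beside the organ comparison. Among receptors, Notch1 was higher by log2 2.08 ± 0.13, adjusted p = 2.0e-05, and Notch2 (-1.91 ± 0.22, adjusted p = 3.2e-04) and Notch3 (-1.998 ± 0.32, adjusted p = 0.0016) were lower. Jag1, Hes1 and Hey1 were not called, at log2 0.35, -0.06 and -0.13. The Hey1 value averages over organs in which it went opposite ways. In the penis, blood endothelial cells had 18.6, 13.8 and 14.7 CPM against 37.3, 37.3 and 36.8 CPM in mesenchyme. In the limbs they had 15.2 in the forelimb and 24.6 in the hindlimb library against 6.61 and 5.36 CPM.

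Notch4, the endothelial receptor, was higher by log2 3.17 ± 0.71, adjusted p = 0.0076, but the call did not outlast the loss of any library. Its adjusted p lay between 0.011 and 0.018 when each of penis replicates 1, 2 and 3, the forelimb or the hindlimb was left out, with log2 values from 2.64 to 3.64. The average covers organs that differed in size. Blood endothelial cells had 29.2, 22.7 and 21.4 CPM against 6.24, 7.39 and 7.16 CPM in penis mesenchyme. In the limbs they had 48.8 in the forelimb and 51.4 in the hindlimb library against 1.23 and 1.36 CPM. Of 35 other pathway genes tested there, 7 were higher and 8 lower. They included Mfng (log2 8.40) and Lfng (2.82), which add sugars to the receptor and change its choice of ligand, and Nrarp (5.29), a feedback inhibitor and target of the pathway. Mfng, at most 0.381 CPM in mesenchyme, also passed the filter on low counts only with its endothelial values. The non-canonical ligand Dlk1 was lower (-3.66).

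**Figure D2:**
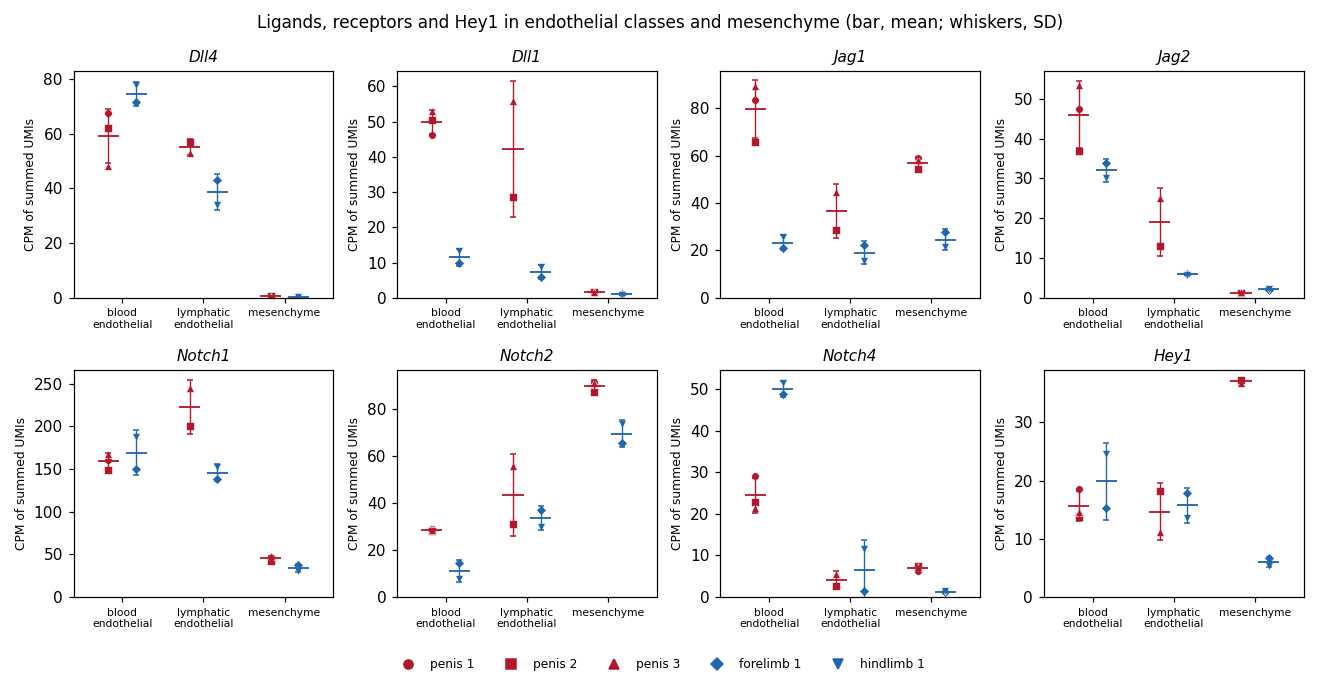
Levels (CPM, linear axis from 0) of 8 genes in blood endothelial, lymphatic endothelial and mesenchyme classes; symbols are libraries, bars means and whiskers SD. Dll1, Jag1 and Notch2 of blood endothelial cells sit higher in the 3 penis libraries than in both limb libraries, and Notch4 sits lower.

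Lymphatic endothelial cells (27 to 46 a library, penis replicate 1 left out for having 16) shared much of this set. Against mesenchyme 5 of 10 genes were called (background 15.5%): Dll4 (6.82), Dll1 (3.78), Jag2 (2.54) and Notch1 (2.19) were higher and Notch2 (-1.09) lower, all on the log2 scale. Dll4 passed the filter on low counts only with its lymphatic values, so its call is not set beside the others. The Notch2 call was lost without penis replicate 2 (log2 -0.98, adjusted p = 0.0032) or the hindlimb (log2 -1.02, adjusted p = 0.011), with gates of 1 marker more (log2 -0.65, adjusted p = 0.047) and with cells holding mesenchyme markers left out (log2 -0.98, adjusted p = 0.0041). The Jag2 call was lost without penis replicate 2 (log2 2.31, adjusted p = 0.016) or 3 (log2 1.99, adjusted p = 0.041), and with gates of 1 marker more (log2 1.30, adjusted p = 0.27).

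Set directly against blood endothelial cells, lymphatic endothelial cells differed in 2 of 10 genes (background 4.15%). Notch4 had 2.6 and 5.58 CPM in penis replicates 2 and 3 and 1.49 in the forelimb and 11.6 in the hindlimb library, against 29.2, 22.7 and 21.4 CPM in the 3 penis libraries and 48.8 in the forelimb and 51.4 in the hindlimb library in blood endothelial cells. The 2 classes did not overlap. Notch4 passed the filter on low counts only with its blood endothelial values, as lymphatic cells held 1 to 12 of its UMIs a library. The difference was log2 -2.67 ± 0.37, adjusted p = 0.0011. With gates of 1 marker fewer it was log2 -1.37, adjusted p = 0.002, and without the library term the call was lost (log2 -2.48, adjusted p = 0.051). Jag2 was also lower (log2 -1.79 ± 0.29, adjusted p = 0.0024). This call was lost without the forelimb (log2 -1.60, adjusted p = 0.021) or the hindlimb library (log2 -1.59, adjusted p = 0.021), and with gates of 1 marker fewer (log2 -0.96, adjusted p = 0.0043), while gates of 1 marker more gave log2 -2.81, adjusted p = 0.0013. Dll4, the lymphatic values of which were 57.1 and 53 CPM in penis replicates 2 and 3 and 43.2 in the forelimb and 33.9 in the hindlimb library, was not called (log2 -0.52 ± 0.22, adjusted p = 0.19). Of the other pathway genes, Dtx1, a Deltex ubiquitin ligase, was higher in lymphatic cells by log2 7.28. Lymphatic values ran from 41.6 to 128 CPM, while blood endothelial cells held 0 to 3 of its UMIs a library. Dtx1 passed the filter on low counts only with its lymphatic values, so this fold is not set beside the others.

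Within blood endothelial cells, those with at least 2 of 6 arterial markers were compared with those holding none. None of 10 genes was called by edgeR, in a comparison that called 0.306% of all genes; 7 had an unadjusted p under 0.05, as had 11.4% of all genes, and DESeq2 called 0. Hey1, a target gene tied to arterial fate, had 24.3, 17.6 and 18.9 CPM in arterial cells of the penis and 27.5 in the forelimb and 40 in the hindlimb library. Non-arterial cells had 0, 9.23 and 17.9 CPM and 3.78 in the forelimb and 8.14 in the hindlimb library, from 0 to 4 UMIs each. They were lower in each of the 5 libraries (log2 1.84 ± 0.46, adjusted p = 0.071). In penis replicate 3 the counting interval of the non-arterial value, 4.89 to 45.95 CPM, took in the arterial value. Hey1 passed the filter on low counts only with its arterial values. Jag1 (log2 1.29 ± 0.27, adjusted p = 0.029) and Dll4 (log2 0.94 ± 0.22, adjusted p = 0.048) were likewise higher in arterial cells of all 5 libraries. With 1 arterial marker more required, Jag1 and Hey1 were called, and with no filter on low counts Jag1, Dll4 and Hey1 were. Arterial cells were also deeper, with a median of 10607 against 7257 UMIs in penis replicate 1 and 8245 against 4170 in the forelimb; the part of depth in these values was not tested.

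Penis and limb blood endothelial cells were then compared over libraries (3 against 2). Among the 10 genes 4 were called, 3 higher and 1 lower in the penis, in a comparison that called 12.6% of all genes. Dll1, a ligand, had 46.1, 50.6 and 53 CPM in the penis libraries and 9.84 in the forelimb and 13.2 in the hindlimb library. The groups did not overlap, with a log2 fold change of 2.07 ± 0.18 SE, adjusted p = 1.7e-07. Jag1, a ligand known from arterial endothelium and smooth muscle, had 83.5, 66 and 89.6 CPM in the penis against 21 in the forelimb and 25.5 in the hindlimb library (log2 1.73 ± 0.17, adjusted p = 6.1e-07), again without overlap. The receptor Notch2 stood at 29, 28.3 and 28.5 CPM in the penis libraries and 14.3 in the forelimb and 7.74 in the hindlimb library (log2 1.33 ± 0.22, adjusted p = 1.3e-04), also without overlap.

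Notch4 went the other way, with 29.2, 22.7 and 21.4 CPM in the penis libraries and 48.8 in the forelimb and 51.4 in the hindlimb library (log2 -1.06 ± 0.15, adjusted p = 4.9e-05). The Notch2 call was lost without the hindlimb (log2 0.96, adjusted p = 0.0066) and the Notch4 call without penis replicate 3 (log2 -0.97, adjusted p = 3.0e-04). Gates of 1 marker fewer moved Notch2 to log2 0.73, adjusted p = 0.016 and Notch4 to log2 -0.88, adjusted p = 0.0014, no filter on low counts moved Notch4 to log2 -0.998, adjusted p = 1.4e-04, and leaving out cells with mesenchyme markers moved Notch2 to log2 2.26, adjusted p = 2.3e-07. Dll4 (log2 -0.36 ± 0.14, adjusted p = 0.053), Notch1 (-0.13), Hes1 (0.28) and Hey1 (-0.37) were not called. Jag2 and Notch3 (log2 -0.79) were not called either. Notch3 was called with gates of 1 marker fewer (log2 -1.10, adjusted p = 0.0045) or 1 marker more (log2 -1.15, adjusted p = 0.0014). It was also called with cells holding mesenchyme markers left out (log2 -1.42, adjusted p = 8.7e-04). The mesenchyme marker list summed to 346 to 373 CPM in the penis libraries and 399 to 523 CPM in the limb libraries in blood endothelial cells, with all 8 markers above 0, and its part was not tested. Cells passing the arterial gate made up 61.6, 62 and 59.4% of blood endothelial cells in penis replicates 1, 2 and 3, 29.2% of those in the forelimb library and 37.4% of those in the hindlimb library. The median depth of blood endothelial cells was 9241.5 to 9617 UMIs in the penis and 5323 to 6496.5 in the limbs, and the part of this make-up and depth in the 4 calls was not tested. Among the other pathway genes the target Nrarp was lower in the penis, at 29.8, 23.6 and 22.3 CPM against 89.5 in the forelimb and 129 in the hindlimb library (log2 -2.14 ± 0.16, adjusted p = 3.2e-08).

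Mural cells wrap the endothelial tube and receive Notch signals from it. Pericytes differed from mesenchyme in 3 of 10 genes, all higher, where only 2.24% of all genes were called. Notch3, the mural receptor, had 307, 317 and 323 CPM in penis pericytes and 103 in the forelimb and 106 in the hindlimb library, against 63.6, 59.9 and 69.4 CPM and 35.3 in the forelimb and 34.5 in the hindlimb library in mesenchyme. Pericytes were higher in each of the 5 libraries, by log2 2.02 ± 0.13, adjusted p = 1.7e-05, and without the library term the adjusted p was 0.016. The size of the difference moved with the gate, to log2 1.18, adjusted p = 1.5e-04 with 1 marker fewer and to log2 3.44 with cells holding mesenchyme markers left out, which kept 20 to 28 pericytes in each of 4 libraries and too few in penis replicate 3. Notch1 (log2 1.08 ± 0.09, adjusted p = 1.0e-04) and Jag1 (1.03 ± 0.11, adjusted p = 4.6e-04) followed. The Notch1 call was lost with gates of 1 marker fewer (log2 0.73, adjusted p = 1.7e-04). The Jag1 call was lost without the forelimb (log2 0.96, adjusted p = 2.8e-04) or the hindlimb (log2 0.995, adjusted p = 5.5e-04) and, with gates of 1 marker fewer, its log2 value was 0.57. Jag1 also fell short with no filter on low counts (log2 0.99, adjusted p = 1.2e-05), without the upper limit on genes and the limit on the ratio of genes to UMIs (log2 0.97, adjusted p = 0.001) and without the library term (log2 0.96, adjusted p = 0.18), and stood at log2 1.73, adjusted p = 7.9e-08 with cells holding mesenchyme markers left out. Pericyte-gated cells kept much of the mesenchyme marker list, at 2829.5 to 3000.2 CPM in the penis libraries and 2265 to 2636 CPM in the limb libraries against 3779.8 to 3877 CPM in the penis libraries and 2963 to 2976 CPM in the limb libraries in mesenchyme itself.

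Heyl and Nrarp, both Notch targets, were the only other pathway genes of 33 called in pericytes. Heyl had 59.9, 76.4 and 72.7 CPM in penis and 44 in the forelimb and 41.8 in the hindlimb library, against at most 4.8 CPM in mesenchyme (log2 3.90 ± 0.11, adjusted p = 1.0e-07). Nrarp was higher by log2 3.87 ± 0.24, adjusted p = 1.3e-05. Hes1 (log2 0.23) and Hey1 (0.22) of the same cells were not called.

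Smooth muscle cells, 34 to 41 in each penis library and too few in the limbs, had Notch3 at 211, 242 and 295 CPM. It was the 1 gene of 9 called against mesenchyme (log2 1.94 ± 0.15, adjusted p = 1.6e-19; background 5.22%), and Heyl was higher too (log2 2.80 ± 0.44, adjusted p = 3.5e-07). With gates of 1 marker fewer, which also let in 22 and 28 cells of the limb libraries, Notch3 was at log2 1.05, adjusted p = 1.6e-04. Against pericytes of the same libraries edgeR called 0 of 6 genes (background 3.34%); 4 had an unadjusted p under 0.05, as had 17.2% of all genes, and DESeq2 called 0. Notch3 there had log2 -0.32 ± 0.15, adjusted p = 0.28, and Hey1, at 73, 40.4 and 49.1 CPM in smooth muscle against 36.8, 32.5 and 29.1 CPM in pericytes, had log2 0.74 ± 0.24, adjusted p = 0.1.

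**Figure D3:**
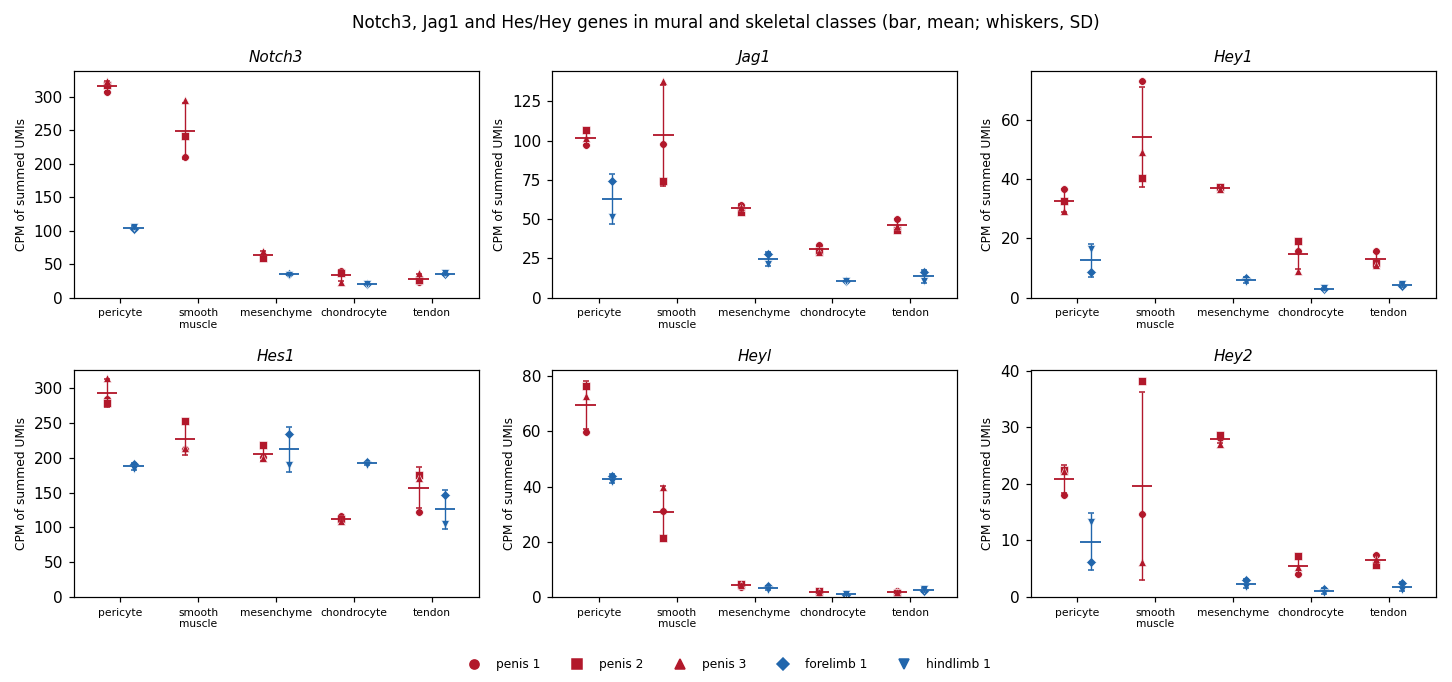
Levels (CPM, linear axis from 0) of Notch3, Jag1 and 4 Hes and Hey genes in mural and skeletal classes; symbols are libraries, bars means and whiskers SD. Notch3 of pericytes sits at 307 to 323 CPM in the 3 penis libraries and at 103 to 106 CPM in the limb libraries, and Hey1 and Hey2 of mesenchyme are each tightly grouped and higher in the penis.

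Penis pericytes had more Notch3 than limb pericytes, without overlap (log2 1.55 ± 0.12, adjusted p = 1.3e-06, a fold of 2.94). This was 1 of 2 calls among 7 genes, beside 13.4% of all genes. With cells holding mesenchyme markers left out, which kept 20 to 28 pericytes in each of 4 libraries, the Notch3 call was lost (log2 0.98, adjusted p = 0.015; 8.87% of 2739 genes tested were called) and Hey1 did not pass the filter on low counts. The other call was Hey1, with 36.8, 32.5 and 29.1 CPM in the penis and 8.71 in the forelimb and 16.6 in the hindlimb library (log2 1.33 ± 0.26, adjusted p = 0.0016). The Hey1 call was lost without the forelimb (log2 0.97, adjusted p = 0.011) and with gates of 1 marker more (log2 0.90, adjusted p = 0.058), and with 1 marker fewer it was log2 2.06, adjusted p = 5.0e-07. Hes1 had 285, 279 and 315 CPM against 192 in the forelimb and 184 in the hindlimb library, without overlap but under the limit on fold (log2 0.60 ± 0.11, adjusted p = 0.0015).

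Mesenchyme, the largest class, differed between the organs in 3 of the 10 genes, all higher in the penis, in a comparison that called 25.1% of all genes. The median log2 difference of the 10 was 0.57, beside 0.005 over all genes tested. Hey1 had 37.3, 37.3 and 36.8 CPM in the penis libraries, against 6.61 in the forelimb and 5.36 in the hindlimb library (log2 2.61 ± 0.10, adjusted p = 1.0e-07, a fold of 6.1). The penis values lay within 1 CPM of each other. Its relative Hey2 moved the same way, from 2.96 in the forelimb and 1.76 in the hindlimb library to 28.2, 28.7 and 27.1 CPM in the penis (log2 3.55 ± 0.18, adjusted p = 5.1e-07). Hes1 had 201, 218 and 200.2 CPM in the penis and 235 in the forelimb and 189 in the hindlimb library, with overlapping groups (log2 -0.06 ± 0.10, adjusted p = 0.58).

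The ligand Jag1 had 58.9, 54.3 and 58.1 CPM in penis mesenchyme and 27.8 in the forelimb and 21.4 in the hindlimb library (log2 1.19 ± 0.11, adjusted p = 1.6e-05), and without the hindlimb its log2 value fell just under the limit (0.997). Notch3, a receptor, had a log2 difference of 0.86 ± 0.06, adjusted p = 4.5e-06, under the limit on fold. Notch4 was low but higher in the penis, with 6.24, 7.39 and 7.16 CPM against 1.23 in the forelimb and 1.36 in the hindlimb library (log2 2.39 ± 0.13, adjusted p = 8.7e-07). The 8 endothelial markers, all above 0 in every library, summed in mesenchyme to 68.7 to 75.3 CPM in the penis libraries and 134 to 139 CPM in the limb libraries. Penis mesenchyme held Notch4 at 21.4 to 33.5% of its level in blood endothelial cells and the endothelial markers at 1.38 to 1.49%. Limb mesenchyme held Notch4 at 2.53 to 2.64% and the markers at 2.95 to 3.23%. What part endothelial cells or their RNA had in the Notch4 values was not tested. The non-canonical ligands parted: Dner was higher in penis mesenchyme (log2 3.84) and Dlk1 lower (-1.20).

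In skeletal classes Jag1 was called between the organs in chondrocytes and tendon, and Hey1 in tendon. In chondrocytes 2 of 6 genes were called, both higher in the penis (background 17.1%). Jag1 had 33.5, 29.5 and 29.4 CPM against 10.5 in the forelimb and 10.5 in the hindlimb library (log2 1.57 ± 0.16, adjusted p = 7.2e-06), and Hey1 15.6, 19.2 and 9.15 CPM against 2.78 in the forelimb and 3.13 in the hindlimb library (log2 2.36 ± 0.30, adjusted p = 5.6e-05). Neither overlapped between the organs. Hey1 passed the filter on low counts only through its penis values, so its call here is not set beside that of Jag1. Hes1 of chondrocytes had 117, 113 and 109 CPM against 194 in the forelimb and 190.2 in the hindlimb library, without overlap but under the limit on fold (log2 -0.75 ± 0.09, adjusted p = 3.8e-05). Dner of chondrocytes was higher in the penis by log2 5.51, at 192, 167 and 177 CPM against 2.68 in the forelimb and 4.86 in the hindlimb library. Dner too passed the filter on low counts only with its penis values, so it is not set beside Jag1.

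In tendon cells 3 of 7 genes were called (background 16%): Jag1 (1.80 ± 0.18, adjusted p = 1.2e-06), Hey1 (1.62 ± 0.27, adjusted p = 1.7e-04) and Notch4 (1.75 ± 0.49, adjusted p = 0.0088), as log2 differences. Jag1 had 50.4, 43.4 and 45.4 CPM in the penis and 16.4 in the forelimb and 10.7 in the hindlimb library, and Hey1 15.9, 11.8 and 11.1 CPM and 3.94 in the forelimb and 4.75 in the hindlimb library. Notch4 passed the filter on low counts only through its penis values, so its call is not set beside those of Jag1 and Hey1. The Notch4 call was lost without penis replicate 1 (log2 1.46, adjusted p = 0.043) or penis replicate 3 (log2 1.77, adjusted p = 0.018). It was also lost without the forelimb (log2 1.38) or the hindlimb (log2 2.22) and with no filter on low counts (log2 1.74, adjusted p = 0.026), and DESeq2 did not call it. Endothelial markers summed to 24 to 37.4 CPM in the penis libraries and 123 to 159.9 CPM in the limb libraries in tendon cells; their part in the Notch4 value was not tested.

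Set against mesenchyme of their own libraries, the skeletal classes gave few calls. Chondrocytes had 2 of 10 genes called, both lower (background 5.94%): Hey1 (log2 -1.17 ± 0.17, adjusted p = 0.0031) and Jag1 (-1.002 ± 0.10, adjusted p = 7.3e-04). The Hey1 call was lost without penis replicate 1 (log2 -1.16, adjusted p = 0.016) or 2 (log2 -1.26, adjusted p = 0.011), and the Jag1 call without the forelimb (log2 -0.91, adjusted p = 0.0013) or the hindlimb (log2 -0.99, adjusted p = 0.0035). With gates of 1 marker fewer neither was called (log2: Jag1 -0.65, Hey1 -0.60), and without the upper limit on genes and the limit on the ratio of genes to UMIs Jag1 was at log2 -0.94, adjusted p = 0.0012. In tendon edgeR called 0 of 10 genes (background 1.66%); 6 had an unadjusted p under 0.05, as had 27.6% of all genes, and DESeq2 called 1, Hey1, at log2 -1.09 ± 0.20, adjusted p = 0.013 in edgeR.

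Epithelial cells were highest of all classes in Jag2 in the basal layer. Basal cells, 31 to 46 in each penis library and 27 in the hindlimb, had 5 of 9 genes called against mesenchyme (background 14.9%). Jag2 had 80.6, 101 and 107 CPM in the penis libraries and 69 in the hindlimb, against at most 2.29 CPM in mesenchyme (log2 5.90 ± 0.32, adjusted p = 1.4e-10). Notch1 was higher (log2 1.18 ± 0.24, adjusted p = 9.9e-04), and Hey1 (-2.54 ± 0.47, adjusted p = 4.0e-04), Notch2 (-1.63 ± 0.22, adjusted p = 1.5e-05) and Notch3 (-1.29 ± 0.25, adjusted p = 6.2e-04) were lower. Notch1 was spread among the libraries, at 72.6, 117 and 169 CPM in the penis and 34.5 in the hindlimb, and its call was lost without penis replicate 2 (log2 1.03, adjusted p = 0.029) or 3 (log2 0.85, adjusted p = 0.027). The Hey1 call was lost without penis replicate 2 (log2 -2.42, adjusted p = 0.014) and by DESeq2, which called Dll1 instead. With cells holding mesenchyme markers left out Notch3 was at log2 -2.14, adjusted p = 3.9e-05.

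In suprabasal cells 4 of 10 genes were called against mesenchyme (background 22.2%). Notch1, the receptor known for driving keratinocytes out of the basal layer, had 177, 139 and 165 CPM in the penis and 149 in the forelimb and 135 in the hindlimb library (log2 2.07 ± 0.11, adjusted p = 6.4e-06). Jag2 (log2 4.67 ± 0.43, adjusted p = 7.2e-05) and Dll1 (2.75 ± 0.32, adjusted p = 2.6e-04) were higher too, and Hey1 was lower (-2.83 ± 0.28, adjusted p = 9.6e-05). The Delta-like relative Dlk2 was higher in both layers, by log2 5.47 in basal and 4.78 in suprabasal cells.

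Suprabasal and basal cells, compared directly, gave 0 calls among 6 genes in edgeR (background 0.448%), while 6 had an unadjusted p under 0.05, as had 19.1% of all genes, and DESeq2 called 0. Notch3 had 51.4, 44.7 and 64 CPM in suprabasal and 21.5, 27.2 and 20.5 CPM in basal cells of the penis, without overlap (log2 1.49 ± 0.27, adjusted p = 0.022 over 4 libraries). Jag2 leaned to the basal layer, with 35.7, 49.6 and 50.2 CPM in suprabasal against 80.6, 101 and 107 CPM in basal cells (log2 -1.16 ± 0.23, adjusted p = 0.034). Stricter gates, with 1 marker more, brought Notch3, Jag1 and Jag2 past the limits.

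Between the organs the basal layer was not compared, since the forelimb had 18 basal cells, under the minimum of 20, so all epithelial cells were used. EdgeR called 0 of 8 genes there (background 11.4%), of which 4 had an unadjusted p under 0.05, as had 37.2% of all genes, and DESeq2 called 0. In suprabasal cells it called 0 of 7 (background 10.4%), of which 3 had an unadjusted p under 0.05, as had 33.3% of all genes, and DESeq2 called 0. Jag1 of suprabasal cells had 61.4, 51.2 and 53.4 CPM against 57.7 in the forelimb and 57.4 in the hindlimb library, an overlap that left a log2 difference of -0.03 ± 0.21. Jag2 of these cells was at 39.9 CPM in the 59 forelimb and 11.2 CPM in the 85 hindlimb cells, 1 library each, and without the forelimb Jag2 (log2 2.005) and Notch3 (log2 -1.04) were called, in a test where the hindlimb was the lone limb library and was assumed to vary like the penis libraries.

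Glial cells of peripheral nerves shared Notch1 with the endothelium and epithelium. Against mesenchyme 3 of 9 genes were called (background 14.6%): Notch1 was higher (log2 1.76 ± 0.11, adjusted p = 5.4e-05), and Hey1 (-1.70 ± 0.16, adjusted p = 3.1e-04) and Notch2 (-1.26 ± 0.14, adjusted p = 5.1e-04) were lower. Between the organs 2 of 6 were called (background 16.4%). Notch3 had 11.3, 6.93 and 5.39 CPM in penis glia and 27.5 in the forelimb and 26.2 in the hindlimb library (log2 -1.70 ± 0.31, adjusted p = 2.5e-04). Hey1, the other call, passed the filter on low counts only through its penis values. It had 12.5, 8.42 and 11.4 CPM against 2.43 in the forelimb and 1.94 in the hindlimb library, from 3 and 2 UMIs in the limb libraries. The Hey1 call (log2 2.27 ± 0.54, adjusted p = 0.0022) is therefore not set beside that of Notch3. It was lost without the forelimb (log2 2.46) or the hindlimb (log2 2.14) and by DESeq2. The target Heyl was lower in the penis, at 12.5, 11.4 and 10.1 CPM against 45.4 in the forelimb and 66.9 in the hindlimb library (log2 -2.23 ± 0.24, adjusted p = 3.9e-07). Nrarp, another target, had 6.79, 9.41 and 9.43 CPM in the penis against 1.62 in the forelimb and 1.94 in the hindlimb library. The limb values came from 2 UMIs in each library. Like Hey1, Nrarp passed the filter on low counts only through its penis values, so its call is not set beside that of Heyl.

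Macrophages held the highest Notch2 of the penis classes. Notch2 had 132, 128 and 129.9 CPM in the penis and 75.5 in the forelimb and 80.9 in the hindlimb library, without overlap but under the limit on fold (log2 0.73 ± 0.10, adjusted p = 1.8e-04). EdgeR called 0 of 5 genes between the organs (background 20%), of which 2 had an unadjusted p under 0.05, as had 57.1% of all genes, and DESeq2 called 0. Against mesenchyme 4 of 9 were called, all lower (background 35.4%): Jag1 (log2 -2.28 ± 0.19, adjusted p = 3.7e-05), Hey1 (-2.18 ± 0.32, adjusted p = 8.3e-04), Notch3 (-1.81 ± 0.21, adjusted p = 2.4e-04) and Notch4 (-1.41 ± 0.27, adjusted p = 0.0029). The Notch4 call was lost without any 1 of penis replicate 1, penis replicate 2, the forelimb and the hindlimb (log2 -1.45 to -1.34, adjusted p 0.01 to 0.013). With cells holding mesenchyme markers left out Notch4 was at log2 -2.17, adjusted p = 8.8e-04 and Hey1 at log2 -3.70, adjusted p = 7.4e-04. Higher there among the other pathway genes were the sugar transferases Mfng (5.81) and Lfng (3.58) and the nuclear partner Rbpj (2.11). Mfng passed the filter on low counts only with its macrophage values.

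In limb muscle the ligand Dll1 and the receptor Notch3 were high in different cells. Only the limbs had enough muscle cells, 708 to 824 progenitors and 695 to 937 differentiating cells a library, so these comparisons rest on 2 libraries and 1 residual degree of freedom, with the spread drawn toward that of all genes. Progenitors, gated on markers such as Pax7 and Myf5, had 4 of 10 genes called against mesenchyme, all higher (background 23.2%). Notch3 had 147 in the forelimb and 142 in the hindlimb library against 35.3 in the forelimb and 34.5 in the hindlimb library in mesenchyme, as CPM (log2 2.35 ± 0.06, adjusted p = 3.1e-12). Hey1 had 24.1 in the forelimb and 28.2 in the hindlimb library (log2 2.44 ± 0.14, adjusted p = 5.8e-09), and Dll1 (2.51) and Jag2 (1.58) were the other calls. With 2 in place of 3 progenitor markers required, which also let in 53 to 96 cells of each penis library, edgeR called 0 of 16672 genes, so none of the 4 was called, and Notch3 was at log2 0.92, Dll1 at 1.51, Hey1 at 1.19 and Jag2 at 1.01.

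Differentiating cells, gated on Myog and other fusion and contraction genes, also had 4 of 10 called (background 28.5%). Dll1 led, with 41 in the forelimb and 36.7 in the hindlimb library as CPM, against 1.2 in the forelimb and 0.906 in the hindlimb library in mesenchyme (log2 5.66 ± 0.14, adjusted p = 1.8e-15). Jag2 (log2 1.79 ± 0.23, adjusted p = 3.4e-06) and Notch1 (1.49 ± 0.08, adjusted p = 2.1e-11) were higher and Jag1 (-1.38 ± 0.13, adjusted p = 1.0e-07) lower.

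Set against each other, the muscle classes differed in 4 of 8 genes (background 13%). Dll1 was at 5.45 in the forelimb and 4.26 in the hindlimb library in progenitors and so higher in differentiating cells, by log2 3.16 ± 0.15, adjusted p = 9.4e-28. Notch3 of differentiating cells had 21.6 in the forelimb and 26.3 in the hindlimb library and was lower than in progenitors (log2 -2.43 ± 0.09, adjusted p = 5.4e-34). Hey1 was lower too, at 5.2 in the forelimb and 4.71 in the hindlimb library (log2 -2.22 ± 0.17, adjusted p = 6.3e-18), as was Jag1 (-1.03), which was not called by DESeq2, with gates of 1 marker fewer (log2 -0.98, adjusted p = 3.5e-05) or without the upper limit on genes and the limit on the ratio of genes to UMIs (log2 -0.96, adjusted p = 4.1e-04). Hes1 had 203 in the forelimb and 203 in the hindlimb library in progenitors and 105 in the forelimb and 93 in the hindlimb library in differentiating cells, a difference under the limit on fold (log2 -0.87 ± 0.06, adjusted p = 1.2e-18). Of the other Hes and Hey genes Hey2 was lower in differentiating cells (-2.64) and Hes6, known to favour myogenic differentiation, higher (1.46), as was the ligand Dner (3.55). Hey2 had 3 UMIs in the forelimb and 1 in the hindlimb library in differentiating cells. It passed the filter on low counts only with its progenitor values, so it is not set beside Hes6.

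**Figure D4:**
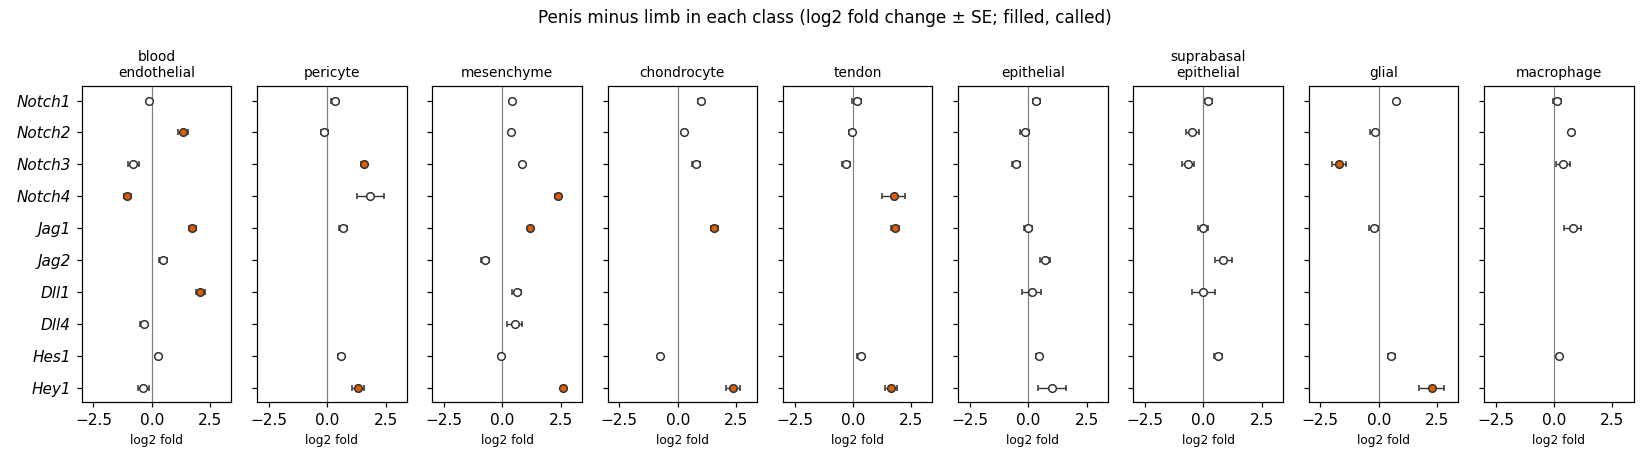
Penis minus limb log2 fold change of each gene in 9 classes (points, with SE as bars; filled where called). Hey1 is filled on the right in pericyte, mesenchyme and tendon panels, Jag1 in blood endothelial, mesenchyme, chondrocyte and tendon panels, and Hes1 in none. The Hey1 points of the chondrocyte and glial panels are also filled, but were tested only because the penis values passed the filter on low counts. The same holds for Notch4 in the tendon panel.

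Across the 9 organ comparisons Hey1 was called higher in penis mesenchyme, pericytes and tendon. In chondrocytes and glial cells it was tested only because its penis values passed the filter on low counts, so its calls there are not set beside these. Jag1, tested in all 9, was called higher in 4. Notch1 and Hes1 were tested in all 9 and called in none, and Notch3 was called higher in 1 and lower in 1. The share of all genes called as often over the 9 was not counted. These counts therefore do not set the Notch genes apart from other genes. Notch1 of chondrocytes stood just under the limit (log2 0.99) and was called without penis replicate 3 (log2 1.04, adjusted p = 1.5e-04). These comparisons share the same 5 libraries and are not independent of each other. Of the other pathway genes, 4 of 35 were called higher and 2 lower in penis mesenchyme, 1 of 29 higher and 2 lower in blood endothelial cells, and 4 of 28 higher and 4 lower in macrophages. Of all genes 25.1%, 12.6% and 20% were called in these 3 classes. Nrarp, the feedback target, was lower in penis epithelial cells (log2 -1.60). In glial cells (2.26) it was tested only because its penis values passed the filter on low counts, so that call is not set beside this one. To ask whether a class departs from mesenchyme in its difference between the organs, the difference between penis and limb of each class minus mesenchyme was tested as an interaction. Each value thus holds the gene's own difference between the organs in mesenchyme, which was itself called for Hey1, Notch4 and Jag1. In blood endothelial cells 6 of 10 genes were called (background 6.52%): Dll1 (1.504), Jag2 (1.27) and Notch2 (1.02) shifted toward the penis relative to mesenchyme, and Notch3 (-1.61), Hey1 (-2.95) and Notch4 (-3.42) toward the limb, as log2 values. Without the hindlimb Notch2 (log2 0.57, adjusted p = 0.14) and Jag2 (log2 1.10, adjusted p = 0.014) were not called, nor was Dll1 without the forelimb (log2 1.17, adjusted p = 0.019). The Notch2 call was also lost with gates of 1 marker fewer (log2 0.39, adjusted p = 0.28), RLE size factors (log2 0.998, adjusted p = 0.0054), no upper limit on genes or limit on the ratio of genes to UMIs (log2 0.97, adjusted p = 0.0063) and DESeq2 (log2 1.01, adjusted p = 0.014), and moved to log2 1.95, adjusted p = 1.7e-05 with cells holding mesenchyme markers left out and log2 1.69, adjusted p = 4.9e-04 without the forelimb.

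In pericytes 1 of 10 interactions was called (background 2.14%), Hey1 at -1.26. It was lost without penis replicate 2 (log2 -1.21, adjusted p = 0.029), penis replicate 3 (log2 -1.17, adjusted p = 0.023) or the hindlimb (log2 -0.496, adjusted p = 0.65) with gates of 1 marker fewer (log2 -0.52, adjusted p = 0.16) and with cells holding mesenchyme markers left out (log2 -1.72, adjusted p = 0.86), and DESeq2 did not call it. Notch3 had 0.73 ± 0.11, adjusted p = 7.5e-05, under the limit on fold. All epithelial cells gave 3 of 10 (background 7.39%), with Jag2 at 1.46, Jag1 at -1.22 and Notch3 at -1.38. Jag2 was lost without penis replicate 2 (log2 1.40, adjusted p = 0.013) or the hindlimb (log2 1.15, adjusted p = 0.011), and Jag1 without the hindlimb (log2 -0.99, adjusted p = 0.006). Glial cells gave 2 of 10 (background 8.83%), Jag1 at -1.35 and Notch3 at -2.52. In macrophages edgeR called 0 of 10 (background 9.84%), of which 5 had an unadjusted p under 0.05, as had 36.3% of all genes, and DESeq2 called 0.

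Shares of cells with a UMI were set at a common depth of 2000 UMIs per cell, shallower cells left out. Among pericytes Notch3 was seen in 41, 44.3 and 44.8% of cells in penis replicates 1, 2 and 3, 21.2% of those in the forelimb and 19.1% of those in the hindlimb. Among macrophages, given for comparison, Notch3 was seen in 1.35, 2.87 and 2.82% of cells in penis replicates 1, 2 and 3, 1.64% of those in the forelimb and 1.77% of those in the hindlimb, at median depths of 6818 to 8563 UMIs. Without thinning the pericyte share was 67 to 73.7% in the penis and 53.4 to 53.6% in the limb libraries, at median depths of 9037 to 11441.5 UMIs. Dll1 was seen among blood endothelial cells in 8.42, 8.98 and 9.91% of cells in penis replicates 1, 2 and 3, 2.71% of those in the forelimb and 2.66% of those in the hindlimb, and among mesenchyme cells in 0.297, 0.302 and 0.31% of cells in penis replicates 1, 2 and 3, 0.234% of those in the forelimb and 0.178% of those in the hindlimb. Hey1 was seen among mesenchyme cells in 6.81, 6.84 and 6.82% of cells in penis replicates 1, 2 and 3, 1.29% of those in the forelimb and 1.06% of those in the hindlimb, and among macrophages in 0.693, 1.25 and 0.514% of cells in penis replicates 1, 2 and 3, 0.139% of those in the forelimb and 0.38% of those in the hindlimb. The macrophage share of Hey1 was thus also higher in the penis libraries, and its part in the mesenchyme shares was not tested. All 3 shares were higher in every penis library than in either limb library in the class named first. These shares are given as values, with no test.

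Forelimb and hindlimb, with 1 library each, were compared by their counting intervals (95%, Poisson, counting error only). The intervals lay apart in 13 of 110 pairs of gene and class, 5 of them in Notch1. The share of all genes with intervals apart was not counted, so these counts do not set the Notch genes, or Notch1 among them, apart from other genes. Such intervals also narrow as a class holds more UMIs, and they leave out the spread between libraries. Hes1 of mesenchyme had 235 CPM (231 to 238) in the forelimb and 189 CPM (186 to 193) in the hindlimb. Jag1 of pericytes had 74.3 CPM (63.8 to 86.0) and 51.5 CPM (43.4 to 60.6).

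The genes most like each of the 10 were found by Pearson correlation of log2(CPM + 1) over 55 sums of class and library, among 12593 genes; sums of a library share its depth and those of a class its gate, so the values only describe. Dll4 was most like Aplnr (r = 0.97), Gimap4 (r = 0.96) and Cdh5 (r = 0.96), of which Cdh5 was a gate marker. Notch4 was most like Sparcl1 (r = 0.81), Slc9a3r2 (r = 0.79) and Tmem255a (r = 0.79), and Notch3 like Ntf3 (r = 0.79), Gucy1a2 (r = 0.79) and Acta2 (r = 0.78), the smooth muscle actin. Jag2 followed Nop53 (r = 0.86), Fzd6 (r = 0.84) and Rpl22 (r = 0.82), Dll1 followed N4bp3 (r = 0.82), Sypl (r = 0.80) and Unc45b (r = 0.78), and Jag1 followed Maoa (r = 0.82), Tnks1bp1 (r = 0.80) and Epn2 (r = 0.79). For Notch1 the genes were Ttc9 (r = 0.81), Cd151 (r = 0.80) and Itga6 (r = 0.78), with Itga6 again a gate marker, and for Notch2 Scpep1 (r = 0.76), Reps2 (r = 0.73) and Rap1gap2 (r = 0.73). For Hes1 they were Btbd3 (r = 0.76), Rcan2 (r = 0.73) and F2r (r = 0.72), and for Hey1 Map1b (r = 0.79), Adamts4 (r = 0.78) and Igfbp3 (r = 0.76). Among the 10 themselves Dll4 and Dll1 had r = 0.64, Dll4 and Notch4 0.63, and Notch3 and Hey1 0.42.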

How the data were processed

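The 5 libraries were 10x Genomics droplet libraries. The authors deposited UMI counts without normalization, made with Cell Ranger 7.0.0 (submitters' processing notes) on the mouse build mm10; whether introns were counted is not given in the sources used here. The limits of the study's methods, which were read as genes per cell, were applied: 500 to 6000 genes and at most 5% mitochondrial counts in the penis, 100 to 9000 (forelimb) or 9500 (hindlimb) and 10% in the limbs, and a ratio of log10 genes to log10 UMIs of at least 0.8. For each marker-gated class with at least 20 cells in a library, counts were added up by library and tested with edgeR 4.0.16 (quasi-likelihood, TMM, filterByExpr) and, as an alternative, DESeq2 1.42.0. Penis and limb were compared over libraries, and classes within libraries with library as a term. On simulated counts of the pericyte comparison between organs (12408 genes, 200 changed by log2 2), edgeR recovered 96.5% with 1 false call. DESeq2 recovered 86% with 0 false calls. Changes nearer the limit on fold were not simulated there, so recovery at the size of many calls is not known. The genes, the 35 other pathway genes and the marker lists were chosen with earlier results of these data known. All 10 genes were measured in every class, but not every value of a gene that was not called is printed. Of the other pathway genes only called ones were named, from the 6 with the largest fold in a comparison. Replicates are the labelled libraries, and nothing says that each limb library was 1 animal, so p-values measure the spread between these libraries, which may in part be technical. Poisson intervals cover counting error only. For epithelium, all epithelial cells replaced the basal class between organs, a choice made after seeing the data. Alternatives covered the tool, scaling, filters, gates, thresholds, the library term and each library left out.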

Additional observations from a re-analysis of the deposited data

Results flagged for a closer look

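In 12 cases the difference between penis and limb of a class departed from that of mesenchyme, by a test of the interaction itself (edgeR quasi-likelihood, adjusted over all genes, 5 libraries). In blood endothelial cells the log2 values, each with its SE, were 1.02 ± 0.23, adjusted p = 0.005 for Notch2, 1.27 ± 0.25, adjusted p = 0.0016 for Jag2 and 1.504 ± 0.29, adjusted p = 0.0016 for Dll1, all toward the penis. They were -1.61 ± 0.23, adjusted p = 1.1e-04 for Notch3, -2.95 ± 0.29, adjusted p = 2.1e-06 for Hey1 and -3.42 ± 0.24, adjusted p = 5.8e-08 for Notch4, toward the limb. The Notch2 call was lost under 5 of the alternatives run (gates of 1 marker fewer, RLE size factors, no upper limit on genes or limit on the ratio of genes to UMIs, DESeq2 and without the hindlimb), with log2 values from 0.39 to 1.01. Without the hindlimb Jag2 and without the forelimb Dll1 were not called either. In pericytes Hey1 had -1.26 ± 0.28, adjusted p = 0.0056, a value not called without penis replicate 2 or 3, without the hindlimb, with gates of 1 marker fewer, with cells holding mesenchyme markers left out or by DESeq2. In epithelial cells Notch3 had -1.38 ± 0.19, adjusted p = 6.3e-06, Jag1 -1.22 ± 0.19, adjusted p = 3.3e-05 and Jag2 1.46 ± 0.30, adjusted p = 7.7e-04. There Jag2 was not called without penis replicate 2 (log2 1.40, adjusted p = 0.013) or without the hindlimb (log2 1.15, adjusted p = 0.011), nor Jag1 without the hindlimb (log2 -0.99, adjusted p = 0.006). In glial cells Notch3 had -2.52 ± 0.30, adjusted p = 7.8e-08 and Jag1 -1.35 ± 0.22, adjusted p = 1.6e-05. Each value holds the same gene's difference between the organs in mesenchyme, which was itself called for Hey1, Notch4 and Jag1, the genes of 5 of the 12.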

How the results depend on the processing

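Of 76 called values of the 10 genes, 43 were called under every alternative run, 33 were not called under at least 1, and none reversed. RLE size factors moved none of the 31 counts of called genes by over 1.5 times. With an adjusted p under 0.05 and no limit on the fold, which lets in smaller differences by construction, 20 counts moved. Beside them, this rule took in 1.33 to 70.6% of all genes over the 31 comparisons, in the order below 70.6, 40.4, 37, 26.2, 21.1, 39.3, 51 and 50.2% between organs, 10.7, 61.8, 59.3, 21.6 and 11.8% against mesenchyme, 1.33, 9.9, 2.85 and 47.3% between related classes, and 6.37, 19.7 and 26.5% for the interactions. Between penis and limb they became 8 in mesenchyme, 7 in blood endothelial cells, 5 in pericytes, 2 in epithelial, 1 in suprabasal and 4 in glial cells, 1 in macrophages and 6 in chondrocytes. Against mesenchyme they became 2 in smooth muscle, 7 in macrophages, 8 in muscle progenitors, 4 in chondrocytes and 4 in tendon. They became 2 for arterial, 4 for lymphatic against blood endothelial, 2 for suprabasal against basal and 7 for differentiating against progenitor cells, and 4, 4 and 1 for the interactions in pericytes, glial cells and macrophages.

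For the other settings the cause was not tested, and the share of all genes called under the same setting stands in brackets. DESeq2 called 1 gene in glial cells between organs (11.7%), 1 in tendon against mesenchyme (3.21%) and 0 in the pericyte interaction (1.76%). With no filter on low counts 1 was called in tendon (1.42%), 3 in arterial (0.648%) and 2 in suprabasal against basal cells (2.09%). Gates of 1 marker fewer gave 2 in macrophages (17.7%) and 4 in chondrocytes (18.1%) between organs, 1 in pericytes (1.48%), 0 in muscle progenitors (0 of 16672 genes) and 0 in chondrocytes (4.32%) against mesenchyme, 1 in lymphatic against blood endothelial cells (1.71%) and 0 in the pericyte interaction (1.36%). Gates of 1 marker more gave 1 in pericytes (11%) and 1 in chondrocytes (14.7%) between organs, 3 in lymphatic cells against mesenchyme (15.8%), 2 in arterial cells (0.664%), 3 in suprabasal against basal cells (3.99%) and 1 in smooth muscle against pericytes (4.86%). Without the upper limit on genes and the limit on the ratio of genes to UMIs macrophages had 2 between organs (19.8%) and chondrocytes 1 against mesenchyme (6.25%). With cells holding mesenchyme markers left out, pericytes had 0 between organs (8.87%) and 0 in the interaction (0.733%), both over 4 libraries, and glial cells between organs (16%), suprabasal against basal cells (0.411%) and the macrophage interaction (13.9%) had 1 each. Without the library term pericytes had 1 (0.593%) and chondrocytes 0 (3.39%) against mesenchyme, and lymphatic against blood endothelial cells 0 (1.03%).

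With each library left out in turn, the counts between organs ranged from 1 to 2 in pericytes (10.9 to 12.6%), 0 to 2 in suprabasal cells (7.96 to 10.2%), 1 to 2 in glial cells (11.6 to 16.3%) and 0 to 1 in macrophages (Notch4, without penis replicate 1; 13.8 to 18.2%). Against mesenchyme they ranged from 3 to 5 in lymphatic (12.1 to 15.1%) and in basal cells (10.4 to 17.1%), 1 to 2 in chondrocytes (3.87 to 4.74%) and 0 to 1 in tendon (Hey1, without the hindlimb; 0.666 to 1.85%). They ranged from 1 to 3 for lymphatic against blood endothelial cells (2.23 to 4.45%), and for the interactions from 0 to 1 in pericytes (1.83 to 2.44%), 1 to 3 in epithelial cells (5.59 to 7.31%) and 0 to 1 in macrophages (Hey1, without the forelimb; 7.65 to 9.73%). Too few cells remained to leave out those with mesenchyme markers in both mural comparisons of smooth muscle, and the 3 muscle comparisons could not lose a library. Without the forelimb or the hindlimb an organ test had 1 limb library, assumed to vary like the penis libraries. No paired analysis was possible because penis and limb libraries, the groups compared between organs, share fewer than 2 replicate numbers. Classes were compared within libraries with the library as a term. Without that term 11 calls were lost, at adjusted p = 0.016 for Notch3 and 0.18 for Jag1 in pericytes, 0.034 for Notch1 and 0.062 for Hey1 in basal cells, 0.015 for Hey1 in suprabasal and 0.097 in glial cells, 0.078 for Notch4 in macrophages, 0.18 for Jag1 and 0.29 for Hey1 in chondrocytes, all against mesenchyme, and 0.051 for Notch4 and 0.047 for Jag2 in lymphatic against blood endothelial cells. The filter on low counts left Dll4 untested in 7 of 9 organ comparisons and Notch4, Dll1 and Jag2 in 5 each; whether depth or a low level in those classes set this was not tested.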
